A study of Mus musculus with 6 samples.

Results

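Ribosome biogenesis and nucleolar genes encode the proteins that transcribe, cut and modify ribosomal RNA and assemble it into the small and large ribosomal subunits. A set of 42 such genes was taken by name, as genes known to respond to the transcription factor MYC, which drives cell growth, and each was read from its single-gene probe set with the highest mean over the 6 arrays. All 42 were found among the 18194 genes measured. In the nucleolus, RNA polymerase I copies ribosomal DNA, small nucleolar ribonucleoproteins (snoRNPs) guide the chemical modification of the transcript, and assembly factors fold and cut it while ribosomal proteins bind. The cumulus cells studied here surround the oocyte in the follicle and, after the ovulatory stimulus, turn to making and secreting an extracellular matrix.

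The samples were cumulus cells of wild-type female mice. At an age of 21 days the mice were given eCG, equine chorionic gonadotropin, which makes follicles grow, at 5 IU for 46 h. The labels give an age of 23 days for every sample. The hCG-6h group (3 samples) then had 5 IU of human chorionic gonadotropin (hCG), the ovulatory hormone, for 6 h, and the hCG-0h group (3 samples) had none. Each sample held the cells of 50 cumulus-oocyte complexes, was handled in medium with 5 µM milrinone, which holds oocytes immature, and went on 1 array. The labels do not say how many mice stand behind a sample, so the p-values measure the spread between these samples, which may be technical. The text that describes hCG-6h samples 2 and 3 gives 7 h and 8 h, whereas their titles give 6 h. The extraction protocol names complexes, not cumulus cells, as the source of the RNA, whereas the collection protocol names cumulus cells. No group without hCG was kept for the later time, so hCG and time cannot be told apart.

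Expression values were log2 RMA values, and a change is the hCG-6h mean minus the hCG-0h mean, tested with limma over all genes (adjusted p under 0.05, Benjamini-Hochberg). Array medians lay between 6.43 and 6.46, and 21.3% of all genes passed. The granulosa marker Inha stood between 13.36 and 13.49 in all 6 samples. Of 13 measured oocyte markers, the zona pellucida genes Zp1, Zp2 and Zp3 and the oocyte growth factor gene Bmp15 lay under 6.08, the limit of the dimmest 1 in 3 genes, in every sample. Ooep was the 1 oocyte marker that rose, with 8.54, 8.32 and 8.54 at hCG-6h against 6.19, 6.84 and 6.57 at hCG-0h. Dppa3 had 7.83, 7.52 and 7.54 at hCG-6h against 6.43, 7.44 and 6.15 at hCG-0h, without overlap (change 0.96 ± 0.32, adjusted p = 0.0851). By limma, 3 of the 13 had an unadjusted p under 0.05, all 3 higher at hCG-6h. The summed linear level of the 13 was 923 to 1057 at hCG-6h against 541 to 695 at hCG-0h. Of 9 granulosa and cumulus markers, 5 fell (Fshr, Amhr2, Nr5a2, Slc38a3 and Fst), and their summed level was 27126 to 29278 at hCG-6h against 38862 to 40217 at hCG-0h. No theca and stroma, endothelial or leukocyte marker passed by limma (1, 2 and 2 had an unadjusted p under 0.05). The summed level of the 4 endothelial markers was 310 to 524 at hCG-6h against 138 to 274 at hCG-0h, without overlap, and in it Cdh5 had 7.73, 7.92 and 8.63 at hCG-6h against 6.12, 5.74 and 7.52 at hCG-0h (change 1.63 ± 0.48, adjusted p = 0.053), with 1 of its 2 probe sets past the threshold. The leukocyte sum was 392 to 450 at hCG-6h against 323 to 416 at hCG-0h, and 1 of the 3 probe sets of Csf1r passed as higher. The theca and stroma sum was 402 to 467 at hCG-6h against 368 to 564 at hCG-0h. Of 2 red blood cell markers 1, Alas2, fell, with sums of 103 to 116 at hCG-6h against 195 to 220 at hCG-0h. The part of other cells in the results was not tested. In bulk samples, fewer cells of a type and less RNA per cell cannot be told apart, and values scaled to equal arrays show no change in total RNA.

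Most of the 42 ribosome biogenesis genes did not pass. The median absolute change of the 42 was 0.22, against 0.23 over all genes. Of the 42, 4 rose (9.52%), 7 fell (16.7%) and 31 did not pass, while 10.8% of all genes rose and 10.5% fell. The median change of the 42 was 0.06, between -0.53 for Polr1a and 1.18 for Noc3l, against a median of 0.01 over all genes. A change of at least 2-fold was called in 1 of them, Noc3l (2.38%), against 9.99% of all genes. In 8 genes every hCG-6h sample lay above every hCG-0h sample (19%, against 19.3% of all genes), and in 13 every hCG-6h sample lay below (31%, against 18.7%).

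These genes were all brighter than the dimmest 1 in 3 genes, with means over the 6 samples from 7.77 to 13.23. Among the 7877 genes with a mean at least as high as the lowest of theirs, 16.9% rose, 17.1% fell and 14.1% changed by at least 2-fold with a call. The median absolute change of those genes was 0.35, against 0.22 for the 42. The 95% interval of the change lay within 2-fold in both directions for 37 of the 42 genes, 29 of them among the 31 that did not pass, and within 1.5-fold for 21. Over all genes those shares were 74.6% and 47%, against 88.1% and 50% of the ribosome biogenesis genes. The 2 that did not pass and whose intervals reached past 2-fold were Polr1b (-0.46 to 1.42) and Polr1e (-0.23 to 1.04). The plot of absolute changes shows how far the 42 genes stayed from the larger changes.

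**Figure D1:**
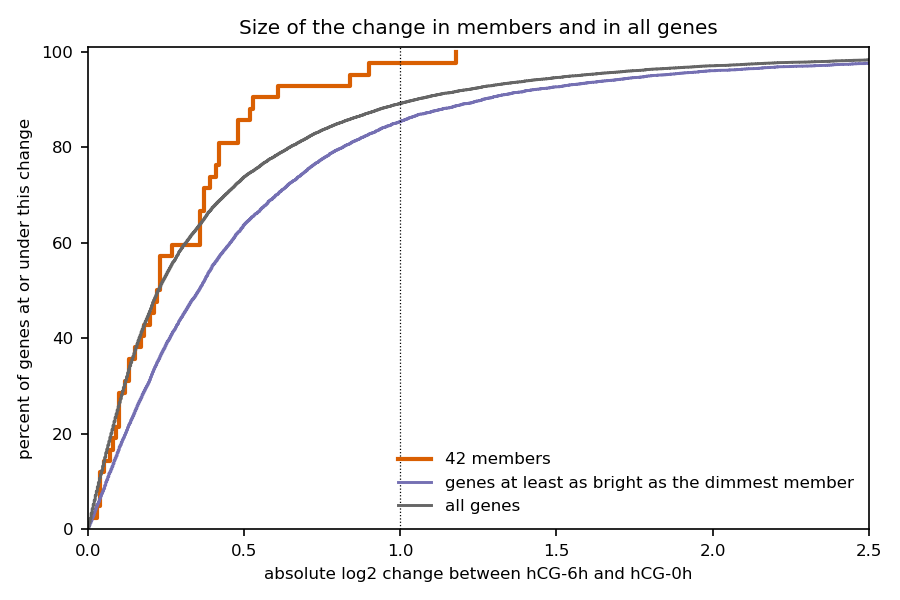
Cumulative share of genes (y axis, percent) against the absolute log2 change between hCG-6h and hCG-0h (x axis), for the 42 ribosome biogenesis genes, for the 7877 genes at least as bright as the dimmest of them, and for all 18194 genes. The dotted line marks a 2-fold change, which 1 of the 42 passed.

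The calls rested on few arrays. Of the 11 genes called, Nop10 was the only one that passed in all 6 fits that dropped a sample (adjusted p 0.0297 to 0.049). With a sample left out, 0 to 4 of the 42 rose and 1 to 4 fell. In those fits 1475 to 1605 of all genes rose, in place of 1968, and 1402 to 1605 fell, in place of 1905. Why calls ended was not tested. No gene of the set rose without hCG-6h sample 1 or without hCG-6h sample 3, whereas 4 rose with hCG-0h sample 1 dropped. Dropping hCG-0h sample 2 or 3 left 1 rise and 2 falls, and dropping hCG-6h sample 2 left 2 of each. Falls numbered 4 with hCG-0h sample 1 dropped, 3 with hCG-6h sample 1 dropped and 1 with hCG-6h sample 3 dropped. Within the groups the samples differed little over the set: the median deviation of the 42 genes from their group mean lay between -0.06 and 0.03 at hCG-6h and between -0.05 and 0.07 at hCG-0h. In hCG-0h sample 1, 22 of the 42 were lowest of the group, and in hCG-0h sample 3, 22 were highest. At hCG-6h, 21 were highest in sample 1 and 22 lowest in sample 2.

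**Figure D2:**
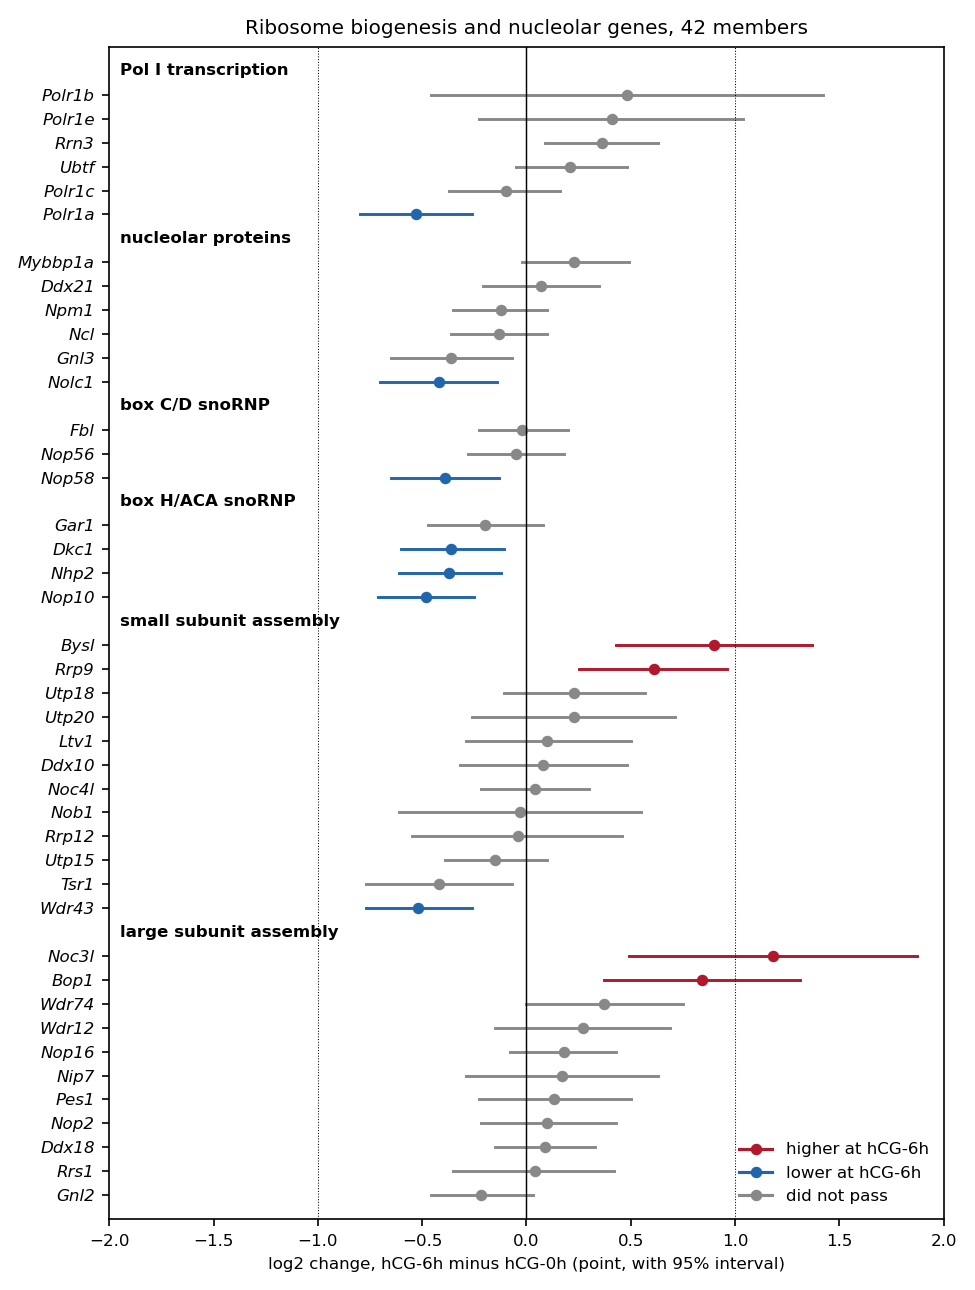
Log2 change, hCG-6h minus hCG-0h (x axis), of the 42 genes, grouped by role, as points with 95% intervals. Dotted lines mark 2-fold in each direction. Of 42, 4 rose (red), 7 fell (blue) and 31 did not pass (grey). Of the 4 box H/ACA genes 3 fell, while 10.8% of all genes rose and 10.5% fell.

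MYC-MAX dimers bind the E-box CACGTG, a palindrome that reads alike on both strands, so the promoters of the set were searched for it. The RefSeq promoter table (GRCm38.p6, 250 bases before to 50 after each start) held 36 of the 42 genes. Of these 36, 9 had a CACGTG in at least 1 promoter window (25%), against 1479 of 14453 measured genes (10.2%). In 3 of the 9, Nop2, Rrn3 and Utp18, it lay before the start (8.33% of the 36, against 8.73% of measured genes); in the other six, Ltv1, Mybbp1a, Pes1, Tsr1, Utp20 and Wdr43, it lay within the first bases of the gene. Wdr43, lower at hCG-6h, was the 1 called gene among the 9. Upstream sequences of the 3 are shown because they hold the motif of the factor that defines the set, while none of the 3 genes passed (adjusted p 0.0698 for Rrn3, 0.333 for Utp18 and 0.663 for Nop2). They run 5′ to 3′ on the strand of the gene and end at the base before its start, with CACGTG in capitals; bases covered by a neighbouring gene, Mbtd1, were left off for Utp18.
Nop2, chr6:125131633-125131882, plus strand: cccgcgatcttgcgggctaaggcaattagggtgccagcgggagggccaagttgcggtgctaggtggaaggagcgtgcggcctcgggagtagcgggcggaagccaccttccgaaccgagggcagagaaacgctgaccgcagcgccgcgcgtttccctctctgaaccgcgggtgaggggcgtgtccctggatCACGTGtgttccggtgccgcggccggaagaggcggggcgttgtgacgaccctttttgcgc
Rrn3, chr16:13780449-13780698, plus strand: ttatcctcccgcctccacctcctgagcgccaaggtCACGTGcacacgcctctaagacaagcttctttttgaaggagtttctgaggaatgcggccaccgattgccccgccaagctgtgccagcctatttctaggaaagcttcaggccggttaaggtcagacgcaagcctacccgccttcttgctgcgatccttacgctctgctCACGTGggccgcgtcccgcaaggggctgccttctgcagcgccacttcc
Utp18, chr11:93885767-93885849, minus strand: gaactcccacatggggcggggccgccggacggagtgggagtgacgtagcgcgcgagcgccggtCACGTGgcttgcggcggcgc
The motif began 60 bases before the start in Nop2, 215 and 48 bases before it in Rrn3, and 20 bases before it in Utp18. A match describes the sequence and was not tested as a binding site.

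Myc itself was far lower at hCG-6h. It stood at 9.51, 9.53 and 9.75 in the hCG-6h samples, against 11.93, 11.93 and 12.09 in the hCG-0h samples, a change of -2.39 ± 0.11 (SE) or 5.23-fold lower (adjusted p = 4.93e-05). In the list of the MYC network, 6 of 12 genes fell (50%) and 1 rose (8.33%). Over all genes 10.5% fell and 10.8% rose, and over the 7877 bright genes above 17.1% and 16.9%. The plot of single samples sets Myc beside the 11 ribosome biogenesis genes that passed.

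**Figure D3:**
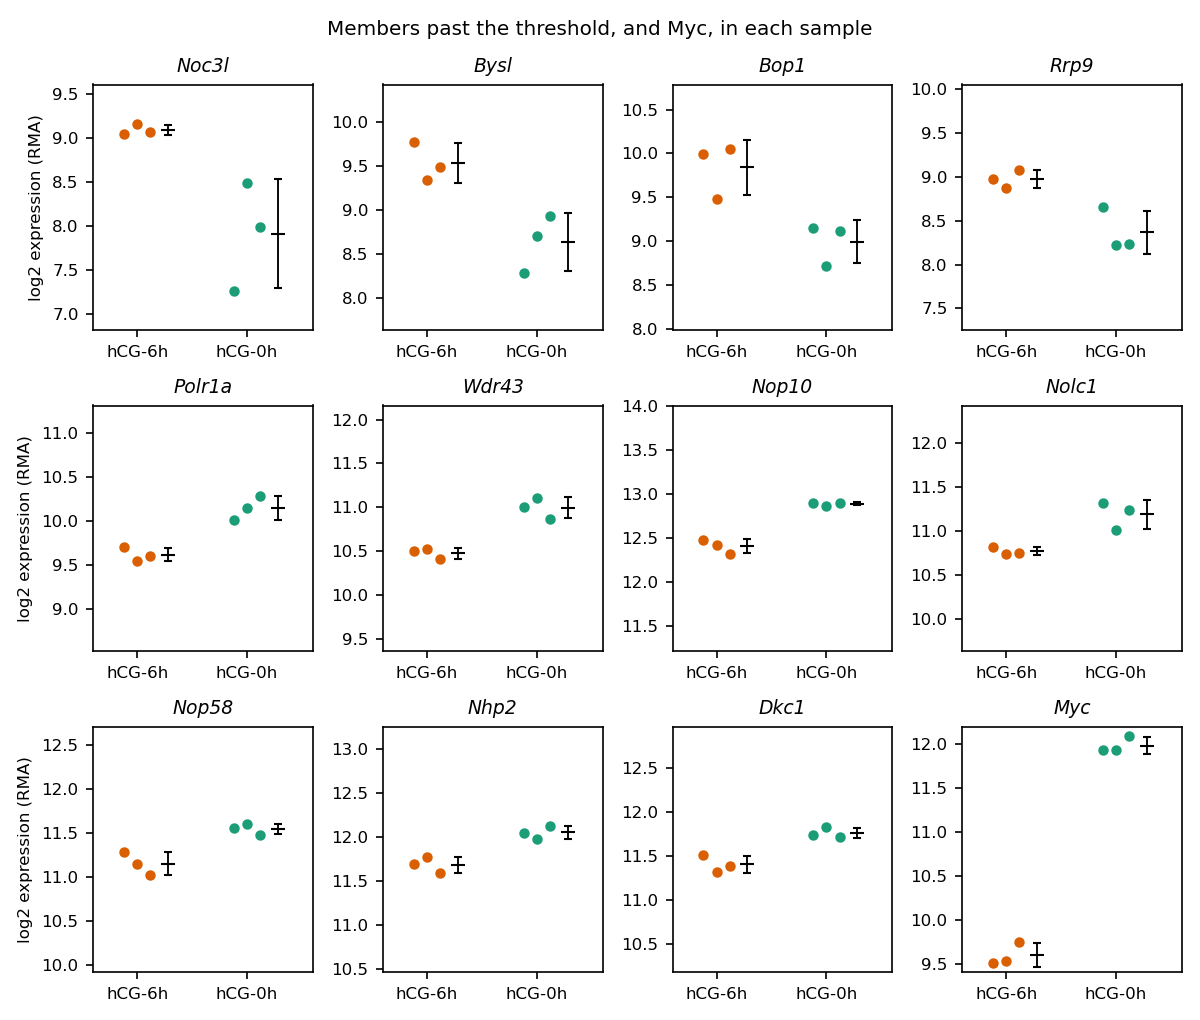
Log2 RMA expression (y axis, of equal width in each panel) in the 3 hCG-6h samples (orange) and the 3 hCG-0h samples (green) for the 4 genes that rose, the 7 that fell, and Myc. The bar beside the points is the mean ± SD; the groups do not overlap in any panel, and Myc shows the largest difference, at -2.39.

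Of 6 genes of RNA polymerase I transcription, 1 fell (16.7%) and 5 did not pass. Over all genes 10.5% fell, and over the 7877 bright genes above 17.1%. Polr1a, the largest and catalytic subunit, had 9.7, 9.55 and 9.6 at hCG-6h against 10.01, 10.15 and 10.28 at hCG-0h. Every hCG-6h sample lay below every hCG-0h sample, and the change was -0.53 ± 0.11 (SE; 1.44-fold lower; adjusted p = 0.0173). The call ended when either of hCG-0h samples 2 and 3 or of hCG-6h samples 2 and 3 was dropped (adjusted p 0.0541 to 0.0595). Of its 4 other probe sets none passed. They changed by -0.28 and -0.41, and the dim ones among them by -0.07 and 0.05. The mean of all 5, dim ones included, changed by -0.25 (adjusted p = 0.176). Polr1b, the second-largest subunit, spread widely, at 8.01, 7.28 and 8.75 in hCG-6h samples against 7.03, 7.89 and 7.68 in hCG-0h samples (change 0.48 ± 0.39). Polr1c, a subunit shared with RNA polymerase III, changed by -0.10 and Polr1e by 0.41, without passing.

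The polymerase's transcription factors in the set, Rrn3 and Ubtf, lay slightly higher at hCG-6h but did not pass. Rrn3, which brings the polymerase to its promoter, stood at 9.51, 9.66 and 9.68 at hCG-6h against 9.23, 9.15 and 9.4 at hCG-0h (change 0.36 ± 0.11, adjusted p = 0.0698). Ubtf, which binds along ribosomal DNA, stood at 10.83, 10.71 and 10.96 against 10.53, 10.65 and 10.68 at hCG-0h (change 0.21 ± 0.11, adjusted p = 0.24). For both, the groups did not overlap. The other probe set of Ubtf changed by -0.02. Among 6 other polymerase I genes measured, none passed by limma, and 2 had an unadjusted p under 0.05. These went opposite ways: Taf1a changed by -0.78 ± 0.27 and Taf1c by 0.49 ± 0.17 (named after their values were seen).

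Of 6 abundant nucleolar proteins, 1 fell (16.7%) and 5 did not pass. Over all genes 10.5% fell, and over the 7877 bright genes above 17.1%. Nolc1, which binds snoRNPs and shuttles to the cytoplasm, had 10.82, 10.74 and 10.75 at hCG-6h against 11.32, 11.01 and 11.24 at hCG-0h (change -0.42 ± 0.12, 1.34-fold lower, adjusted p = 0.0439). Its 2 other probe sets changed in the same direction, by -0.49 and -0.57, without passing. The call held without hCG-0h sample 2 and ended without any other sample (adjusted p 0.089 to 0.119). It also ended with quantile normalisation again (adjusted p = 0.0601) and with all probe sets tested (adjusted p = 0.057). The most abundant proteins of the nucleolus did not pass. Npm1, nucleophosmin, stood at 13.13, 13.15 and 13.21 at hCG-6h against 13.23, 13.3 and 13.33 at hCG-0h (change -0.12, 95% interval -0.35 to 0.10, adjusted p = 0.426), and it was called lower under a robust variance model with a trend (adjusted p = 0.0459). Ncl, nucleolin, had 12.46, 12.39 and 12.43 against 12.47, 12.56 and 12.64 (change -0.13, 95% interval -0.36 to 0.10). Its groups, like those of Npm1, did not overlap. Gnl3, the nucleolar GTPase nucleostemin, changed by -0.36 ± 0.12 (adjusted p = 0.0866), Mybbp1a by 0.23 and the helicase gene Ddx21 by 0.07.

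The box C/D snoRNP adds methyl groups to ribosomal RNA. Of the 3 core genes in the set 1 fell (33.3%), against 10.5% of all genes and 17.1% of the bright genes. Nop58 had 11.28, 11.15 and 11.02 at hCG-6h against 11.55, 11.6 and 11.48 at hCG-0h (change -0.39 ± 0.11, 1.31-fold lower, adjusted p = 0.0453). The call ended with each of the 6 samples left out (adjusted p 0.0525 to 0.131) and with all probe sets tested (adjusted p = 0.0595). Its paralogue Nop56 stood at 11.44, 11.57 and 11.42 against 11.47, 11.55 and 11.56 at hCG-0h (change -0.05, 95% interval -0.28 to 0.18). Fbl, fibrillarin, the methyltransferase of the particle, had 12.23, 12.19 and 12.18 against 12.26, 12.18 and 12.21 (change -0.02, 95% interval -0.23 to 0.20). The groups overlapped for Nop56 and Fbl.

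The box H/ACA snoRNP converts uridine to pseudouridine, and its core proteins are also found in telomerase. Of its 4 core genes, 3 fell (75%) and the fourth, Gar1, did not pass. Of all genes 10.5% fell, and of the 7877 bright genes above 17.1%. Nop10, the smallest core protein, had 12.48, 12.42 and 12.32 at hCG-6h against 12.9, 12.87 and 12.9 at hCG-0h (change -0.48 ± 0.10, 1.4-fold lower, adjusted p = 0.0135). Its second probe set also passed, with a change of -0.61. Nhp2 had 11.7, 11.77 and 11.59 at hCG-6h against 12.05, 11.98 and 12.13 at hCG-0h (change -0.37 ± 0.10, adjusted p = 0.0471). Dkc1, the pseudouridine synthase dyskerin, had 11.51, 11.32 and 11.39 against 11.74, 11.83 and 11.72 (change -0.36 ± 0.10, adjusted p = 0.0497).

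In these 3 genes every hCG-6h sample lay below every hCG-0h sample (75% of the 4, against 18.7% of all genes). The calls of Nhp2 and Dkc1 ended with each of the 6 samples left out (adjusted p 0.0768 to 0.137 and 0.0662 to 0.145), while their changes stayed between -0.41 and -0.31. Their probe sets are of the kind that can match several transcripts, and with such probe sets left out neither passed (adjusted p 0.434 for Dkc1 and 0.0512 for Nhp2). Nor did they pass with all probe sets tested (adjusted p 0.0664 for Dkc1 and 0.0628 for Nhp2). The other probe set of Nhp2 changed by -0.39, and the other probe sets of Dkc1 changed by -0.21 and -0.36, without passing. The mean of the Dkc1 probe sets changed by -0.31 (adjusted p = 0.0869). Gar1 stood at 12.07, 11.83 and 12 at hCG-6h against 12.2, 12.04 and 12.25 at hCG-0h (change -0.20 ± 0.12, 95% interval -0.47 to 0.08), with overlap between the groups.

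Of 12 genes of small subunit assembly, 2 rose (16.7%), 1 fell (8.33%) and 9 did not pass. Over all genes 10.8% rose and 10.5% fell, and over the 7877 bright genes above 16.9% and 17.1%. Bysl, bystin, a factor of late maturation, had 9.78, 9.34 and 9.49 at hCG-6h against 8.28, 8.7 and 8.93 at hCG-0h (change 0.90 ± 0.20, 1.87-fold higher, adjusted p = 0.0199). Its second probe set passed too, with a change of 0.94. The call ended when hCG-0h sample 2, hCG-6h sample 1 or hCG-6h sample 3 was dropped (adjusted p 0.0519 to 0.0613). Rrp9, a protein of the snoRNP that guides the first cuts of the precursor, had 8.97, 8.87 and 9.08 at hCG-6h against 8.65, 8.22 and 8.23 at hCG-0h (change 0.61 ± 0.15, 1.52-fold higher, adjusted p = 0.0289). It passed without hCG-0h sample 1 and with no other sample left out (adjusted p otherwise 0.0554 to 0.0912).

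Wdr43, a component of the small subunit processome, moved the other way. It had 10.5, 10.53 and 10.41 at hCG-6h against 11.01, 11.11 and 10.87 at hCG-0h (change -0.52 ± 0.11, 1.43-fold lower, adjusted p = 0.0159). The call ended when hCG-0h sample 2 or hCG-6h sample 3 was dropped (adjusted p 0.0552 to 0.0566), and its other probe set changed by -0.35 without passing. Other processome genes did not pass: Utp15 changed by -0.15, Utp18 by 0.23, Utp20 by 0.23, Noc4l by 0.04 and the helicase gene Ddx10 by 0.08. Among the late factors, Tsr1 had 10.56, 10.55 and 10.29 at hCG-6h against 10.66, 10.93 and 11.08 at hCG-0h (change -0.42 ± 0.15, adjusted p = 0.0908), and it passed without hCG-0h sample 1 (adjusted p = 0.0486) and under a robust variance model with a trend (adjusted p = 0.0491). Nob1, the nuclease of the final cut, changed by -0.03, Rrp12 by -0.04 and Ltv1 by 0.10.

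Of 11 genes of large subunit assembly, 2 rose (18.2%) and 9 did not pass. Of all genes 10.8% rose, and of the 7877 bright genes above 16.9%. Above 0 lay 10 of the 11 changes, against 9277 of 18194 over all genes. Noc3l had 9.05, 9.16 and 9.07 at hCG-6h against 7.26, 8.49 and 7.99 at hCG-0h (change 1.18 ± 0.29, 2.27-fold higher, adjusted p = 0.0297). The hCG-6h samples lay close together, whereas hCG-0h sample 1 was low, and without that sample the change was 0.85. The call ended without hCG-0h sample 3 or any of the hCG-6h samples (adjusted p 0.0745 to 0.0816), and a second probe set changed by 0.57 without passing. The mean of both changed by 0.87 (adjusted p = 0.0681). Bop1 had 9.99, 9.48 and 10.05 at hCG-6h against 9.15, 8.72 and 9.12 at hCG-0h (change 0.84 ± 0.20, 1.79-fold higher, adjusted p = 0.0246). That call ended when either of hCG-0h samples 2 and 3 or of hCG-6h samples 1 and 3 was dropped (adjusted p 0.0528 to 0.078). The mean of the Bop1 probe sets, which includes a dim one that changed by -0.03, changed by 0.41 (adjusted p = 0.121).

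Bop1 forms the PeBoW complex with Pes1 and Wdr12, which did not pass. Pes1 stood at 10.13, 9.9 and 10.33 at hCG-6h against 9.8, 10.01 and 10.15 at hCG-0h (change 0.13, 95% interval -0.23 to 0.50). Wdr12 stood at 10.27, 9.88 and 9.9 against 10.02, 9.48 and 9.74 (change 0.27, 95% interval -0.15 to 0.69). The groups overlapped for both, and whether Bop1 changed more than its partners was not tested. Of the others, Wdr74 had groups that did not overlap, at 10.54, 10.7 and 10.54 at hCG-6h against 9.94, 10.49 and 10.23 at hCG-0h (change 0.37 ± 0.16, adjusted p = 0.152). Nop16, Nip7, Nop2 (an RNA methyltransferase), Ddx18 and Rrs1 changed by 0.18, 0.17, 0.10, 0.09 and 0.04, and Gnl2, a nucleolar GTPase, by -0.22, the only change below 0 among these 11 genes. A dimmer probe set of Gnl2 passed with a change of -0.94, and the mean of its probe sets passed too (adjusted p = 0.031).

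Of the 42 genes, 30 had more than 1 probe set. The 11 called genes had 14 other probe sets, and 12 of them changed in the direction of the call. The exceptions were a dim probe set of Bop1 (-0.03) and a dim probe set of Polr1a (0.05). The 12 include another dim probe set of Polr1a (-0.07). Of the 14, only the second probe sets of Bysl and Nop10 passed.

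Other genes of ribosome biogenesis were counted from a further list of 104, of which 99 were measured. Of these, 17 rose (17.2%), 5 fell (5.05%) and 77 did not pass, with a median change of 0.07. Of all genes 10.8% rose and 10.5% fell, and of the 7877 bright genes above 16.9% rose and 17.1% fell. The share that rose was near that of bright genes, and the share that fell was lower. In this list 9 to 13 rose and 2 to 4 fell with a sample left out. The shares for the lists are drawn in the bar plot. Among 40 further small subunit factors, 10 rose (25%) and 1 fell (2.5%), against 16.9% and 17.1% of the bright genes. Wdr36, Nol6 and Rrp36, all tied to the small subunit processome, changed by 0.80 ± 0.23, 0.79 ± 0.21 and 0.74 ± 0.16 (adjusted p 0.0491, 0.0396 and 0.0189), and Rcl1 by -0.59 ± 0.13 (adjusted p = 0.0214). These 4 calls ended without some of the samples, with an adjusted p of at most 0.136 for Wdr36, 0.119 for Nol6, 0.063 for Rrp36 and 0.069 for Rcl1. Wdr36 also did not pass after centring, with all probe sets tested or with their mean (adjusted p 0.0542 to 0.0576).

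Among 39 further large subunit factors, 4 rose (10.3%) and 3 fell (7.69%), against 10.8% and 10.5% of all genes. Of the 7877 bright genes 16.9% rose and 17.1% fell. The largest change belonged to Efl1, a GTPase that helps remove the factor eIF6 from the finished large subunit. Efl1 had 8.27, 8.2 and 8.15 at hCG-6h against 10.03, 9.98 and 10.28 at hCG-0h (change -1.89 ± 0.12, 3.71-fold lower, adjusted p = 0.000117). Eif6 had 11.33, 11.18 and 11.25 at hCG-6h against 10.37, 10.44 and 10.3 at hCG-0h (change 0.88 ± 0.10, 1.84-fold higher, adjusted p = 0.00128). Sbds, the partner of Efl1, changed by 0.09 and did not pass (named after its values were seen). Nmd3, the export adaptor of the large subunit, changed by -0.67 ± 0.10 (adjusted p = 0.00393), the helicase gene Ddx54 by 0.96 ± 0.17 (adjusted p = 0.00803) and Mak16 by 0.61 ± 0.10 (adjusted p = 0.00658). The calls of Efl1, Eif6, Nmd3, Ddx54 and Mak16 held whichever sample was dropped, but Ddx54 was read from a probe set that can match several transcripts and did not pass without it (change 0.42, adjusted p = 0.0659). The mean of the probe sets of Ddx54 changed by 0.45 (adjusted p = 0.0297). Noc2l changed by -0.39 ± 0.10 (adjusted p = 0.0376) and lost its call with each sample left out (adjusted p 0.0675 to 0.113). The mean of its probe sets changed by -0.11 (adjusted p = 0.636), and it did not pass with all probe sets tested (adjusted p = 0.0507).

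The RNA exosome trims the precursor of ribosomal RNA. Of 14 of its genes 3 rose (21.4%) and 1 fell (7.14%), against 10.8% and 10.5% of all genes. Of the 7877 bright genes 16.9% rose and 17.1% fell. Exosc6, Exosc4 and Exosc3, subunits of its core, changed by 0.89, 0.72 and 0.68 (adjusted p 0.00148, 0.0155 and 0.0107), and Dis3, its nuclease, by -0.53 (adjusted p = 0.0187). The change of Exosc4 was 1.15 without probe sets that can match several transcripts. Its call ended without hCG-0h sample 3 (adjusted p = 0.051) and that of Dis3 when hCG-0h sample 2, hCG-0h sample 3 or hCG-6h sample 2 was dropped (adjusted p 0.0525 to 0.0621).

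**Figure D4:**
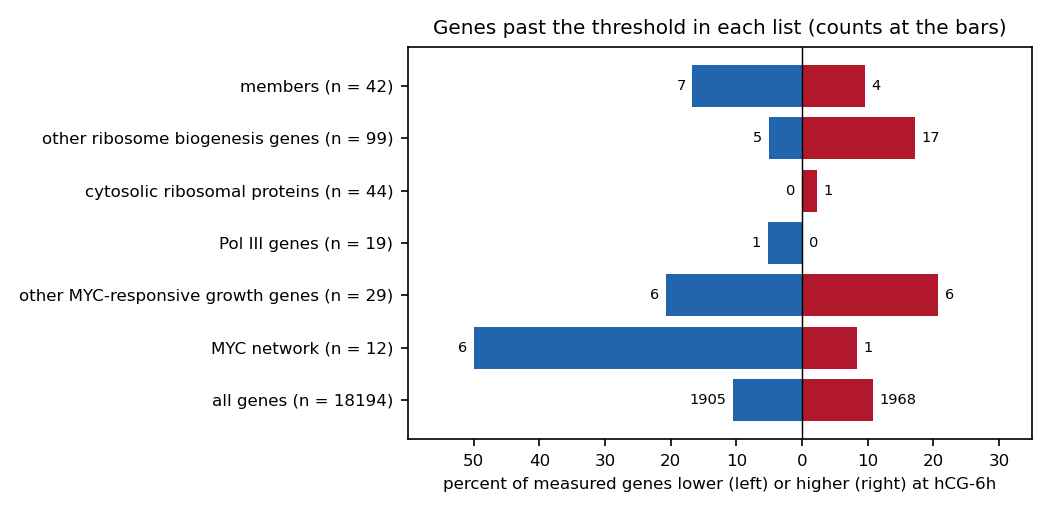
Percent of the measured genes of each list that fell (blue, left) or rose (red, right) at hCG-6h relative to hCG-0h, with the number of genes at each bar; the lowest bar is all 18194 genes. Of the 42 ribosome biogenesis genes 7 fell and 4 rose, and of the 12 MYC network genes 6 fell and 1 rose.

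Few ribosomal protein genes passed. Of 79 cytosolic ribosomal protein genes 44 were measured through single-gene probe sets, and 1 rose, Rpl14, with a change of 0.71 ± 0.17 (adjusted p = 0.0258), while none fell by limma (1 at an unadjusted p under 0.05). The call of Rpl14 held without hCG-0h sample 3 and ended with any other sample left out (adjusted p 0.0583 to 0.0797). The median change was -0.05, and the 95% interval lay within 1.5-fold for 42 of the 44. Their median level was 13.46 and their highest 14.43, near the top of the range of the arrays, and whether saturation narrowed their changes was not tested. In 19 of the 44 (43.2%) every hCG-6h sample lay below every hCG-0h sample, against 18.7% of all genes, and 12 were called lower under a robust variance model with a trend. Copies and pseudogenes of these genes are many, so single probe sets are uncertain.

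Of 19 measured RNA polymerase III genes, none rose by limma (0 at an unadjusted p under 0.05) and 1 fell (5.26%). Over all genes 10.8% rose and 10.5% fell. In 7 of the 19 (36.8%) every hCG-6h sample lay below every hCG-0h sample, against 18.7% of all genes. In 1 (5.26%) every hCG-6h sample lay above, against 19.3%. The gene that fell was Bdp1. Bdp1, a subunit of the initiation factor of this polymerase, had 9.01, 9.04 and 9.12 in hCG-6h samples against 9.8, 10.08 and 10.08 in hCG-0h samples (change -0.93 ± 0.12, adjusted p = 0.00202). With a sample left out, 1 to 2 of the list fell and 0 to 1 rose, the 1 without hCG-6h sample 1.

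In the MYC network, the fall of Mycl, a MYC paralogue, was larger than that of Myc, with 6.89, 5.5 and 6.61 at hCG-6h against 10.51, 9.77 and 9.75 at hCG-0h (change -3.68 ± 0.39, 12.8-fold lower, adjusted p = 0.00099). Max, the partner of MYC, and the repressors Mnt and Mxd1 changed by -0.49, -0.73 and -0.60 (adjusted p 0.0377, 0.0277 and 0.0244), and Mlx by 1.53 and Mlxip, which pairs with Mlx, by -0.98 (adjusted p 0.0012 and 0.00396). Mxd3, Mxd4 and Mxi1 changed by 0.13, -0.43 and -0.47 without passing. Of the 4 probe sets of Mxd4, 1 that was not used passed as lower. Mxd4 passed without hCG-6h sample 3 (adjusted p = 0.0145), and Mxi1 passed without hCG-0h sample 3, after centring, without dim genes and under the trend variance model (adjusted p 0.0304 to 0.0495). The calls of Max, Mnt and Mxd1 ended without 4 or 5 of the samples in turn (adjusted p up to 0.11, 0.0835 and 0.0776), so that 3 to 6 genes of the list fell. The mean of its probe sets changed by -0.25 for Mxd1 (adjusted p = 0.25) and by -0.45 for Mnt, which still passed (adjusted p = 0.0495).

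Among 29 measured growth genes outside the ribosome that are also known to respond to MYC, 6 rose and 6 fell (20.7% each), with a median change of -0.09. Over all genes the shares were 10.8% and 10.5%, and over the 7877 bright genes 16.9% and 17.1%. Those with the largest changes were Paics, of purine synthesis, at -1.04 ± 0.12 (2.06-fold lower, adjusted p = 0.00132), Umps, of pyrimidine synthesis, at -0.92 ± 0.12 (adjusted p = 0.00199), Rcc1, the nucleotide exchange factor of Ran, at 0.80 ± 0.17 (adjusted p = 0.0173), and Mthfd1, of folate metabolism, at -0.73 ± 0.17 (adjusted p = 0.0243). Paics and Umps held with each sample left out. The call of Rcc1 ended without hCG-6h sample 1 or 3 (adjusted p 0.0505 to 0.051), and that of Mthfd1 ended without any of the hCG-6h samples (adjusted p 0.0568 to 0.0764). With a sample left out, rises numbered 1 to 4 and falls 4 to 7, and only 1 gene rose when hCG-6h sample 1 or 3 was dropped.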

How the data were processed

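The table holds 45101 probe sets as deposited log2 values, rounded to 2 decimals; the authors made them with GCOS, Affymetrix Expression Console 1.1 and RMA, per the submitters' processing notes. RMA subtracts background, quantile-normalises arrays and summarises each probe set, which compresses changes of dim genes. RNA was amplified with a NuGEN kit before labelling, per the labels. No source used here names a genome build. Of the probe sets, 34958 had 1 gene symbol, 932 several and 9211 none listed; single-symbol probe sets were used, the one with the highest mean per gene, which gave 18194 genes. List genes without such a probe set are not analysed here. The fit was limma 3.58.1 in R 4.3.3 (lmFit, eBayes, default settings, group as the only term), two-sided, adjusted over all genes. No depth exists for arrays, and their number limits the precision. The script was tested on simulated data.

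The members and lists were chosen with earlier results of these data known. Named are all 42 members, Myc, Max, Mnt and the MXD genes (Mycl, Mlx and Mlxip complete the calls of that list), the 4 largest called changes of each list and, for other ribosome biogenesis genes, the 3 largest per role and direction; the promoter rule was to show called genes with an upstream CACGTG, and as there was none, the 3 genes that hold it were chosen after the values were seen. The other settings were a replicate block, another variance model, normalisations, array weights, filters, probe set rules, hCG-6h sample 1 alone and each sample left out.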

Additional observations from a re-analysis of the deposited data

How the results depend on the processing

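Of the 42 ribosome biogenesis genes, 4 rose and 7 fell in the fit reported. With the sample number as a replicate block 2 rose and 2 fell; same-numbered samples did not deviate together (r 0.01, -0.02 and 0.03), so the samples share only a number. With the mean of probe sets 2 rose, and with all probe sets tested 3 fell. With hCG-6h sample 1 alone, assumed to vary like the hCG-0h samples, 0 rose and 0 fell, against 809 and 767 of all genes. Leaving out each sample gave 0 to 4 rises and 1 to 4 falls, and a median change of 0.01 to 0.1. Centring on array medians, array weights and leaving out the dimmest 1 in 3 genes changed none of the 42 calls, and no called gene changed sign under any setting. The setting without _s_at and _x_at probe sets was chosen after seeing the data and left 4 rises and 5 falls among 40 genes.

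For other ribosome biogenesis genes (17 rose, 5 fell), the replicate block gave 11 and 3, hCG-6h sample 1 alone 4 and 1, a trend and robust variance 8 falls, and a sample left out 9 to 13 and 2 to 4. For ribosomal proteins (1 and 0), a trend and robust variance gave 12 falls, the mean of probe sets 1 fall, sample 1 alone 0 rises and a sample left out 0 to 1 rises and 0 falls. For RNA polymerase III genes (0 and 1), quantile normalisation again, centring and leaving out dim genes each gave 2 falls, sample 1 alone 0, and a sample left out 0 to 1 rises and 1 to 2 falls. For the MYC network (1 and 6), sample 1 alone gave 3 falls and a sample left out 3 to 6. For other MYC-responsive genes (6 and 6), a trend and robust variance gave 10 falls, sample 1 alone 0 rises and 2 falls, and a sample left out 1 to 4 and 4 to 7. Over all genes a sample left out gave 1475 to 1605 rises and 1402 to 1605 falls. Why these counts differed between settings was not tested.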
